A study of Homo sapiens with 12 samples.

Results

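The mRNAs of 9 genes of N-glycoprotein folding in the endoplasmic reticulum (ER), MOGS, GANAB, PRKCSH, UGGT1, CANX, CALR, PDIA3, MAN1B1 and EDEM1, were followed among the 58302 genes listed in 12 RNA sequencing libraries. GANAB was picked because its mRNA was much higher after NUF2 knockdown in both cell lines, so its values with and without the knockdown are a description and carry no test. The other 8 genes were picked by function, as partners of GANAB and as the chaperones and enzymes that act next to it. Earlier results of these data were known when they were picked. All 9 genes were high enough to be tested in each cell line, where 14155 genes (769-P) and 15116 genes (ACHN) were tested.

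Proteins that enter the ER receive a preformed N-glycan that ends in glucose. Glucosidase I (MOGS) and then glucosidase II, a heterodimer of a catalytic subunit (GANAB) and a regulatory subunit (PRKCSH), trim these glucoses, and the glycan with its last glucose is held by the lectin chaperones calnexin (CANX) and calreticulin (CALR), which work with the disulfide isomerase PDIA3. UGGT1 puts a glucose back on proteins that are not yet folded, while MAN1B1 and EDEM1 trim mannoses from, or pass on, proteins that are sent to ER-associated degradation (ERAD).

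The study transfected 769-P and ACHN cells, both labelled as clear cell renal cell carcinoma (ccRCC) cells, with siRNA against NUF2 (si-NUF2) or with control siRNA (si-NC) for 48 h, and sequenced 3 libraries from each of the 4 groups. NUF2 is a kinetochore protein needed for the attachment of chromosomes to the spindle. By the study's methods, si-NUF2 was a mix of a pair of siRNAs and the lines were kept in different culture media, so an effect of losing NUF2 and an effect of the siRNAs themselves cannot be told apart, and neither can cell line and medium. Nothing states that the replicates came from separate cultures, so p-values measure the spread between these libraries, which may be technical.

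The deposited values are FPKM, which are reads scaled by the exon length of a gene and by the depth of its library, and levels below are in this unit. The reads recovered from them ran from 28698089 to 38034705 per library. NUF2 itself checked the labels, since its mean was 3.68 FPKM with si-NUF2 against 18.3 with si-NC for 769-P and 3.85 against 13.8 for ACHN, and no si-NUF2 library reached a si-NC library of the same line. Of 7 markers of renal carcinoma epithelium, 6 had a mean of at least 0.5 FPKM in each group, while CA9, a target of hypoxia signalling in ccRCC, was under 0.1 in every library of 3 groups. Of 8 markers of other cell types, PTPRC, CD3E, CD68, PECAM1, CDH5, ALB and DCN were under 0.1 FPKM in every library. The summed level of the list, COL1A1 included, was 0.183 to 0.261 FPKM for 769-P and 1.27 to 3.95 FPKM for ACHN. In these bulk samples, fewer cells of a type and less RNA per cell cannot be told apart.

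In ACHN cells the libraries numbered 1 stood apart from the others of their groups. In both groups library 1 held the highest level of 7 of the 9 genes (MOGS, PRKCSH, UGGT1, CALR, PDIA3, MAN1B1 and EDEM1) and the lowest level of GANAB. The largest such gap was in CALR, with 419 FPKM in library 1 against 240 and 243 in the other si-NUF2 libraries, and 395 against 207 and 194 with si-NC. ACHN log2 differences of the 9 genes are therefore also given without both libraries numbered 1. A second fit, which compares libraries of the same number by taking that number as a block (replicate block), is given where it changes a call or comes near one.

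GANAB (ENSG00000089597) lies on the reverse strand of chromosome 11, at chr11:62624826-62646726 of GRCh38. In 769-P cells its level was 153, 160 and 169 FPKM in the si-NUF2 libraries and 46.7, 48.2 and 39.7 FPKM in the si-NC libraries. The ACHN libraries held 104, 114 and 116 FPKM after si-NUF2 and 30.8, 46.6 and 37.1 FPKM after si-NC. Every si-NUF2 library was above every si-NC library of either line, and the gene rested on 4853 to 26150 reads per library, so counting error was small beside the differences.

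The mean of GANAB was 161 ± 7.96 FPKM (SD, n = 3) with si-NUF2 against 44.9 ± 4.54 with si-NC in 769-P cells, a ratio of 3.59. In ACHN cells the means were 111 ± 6.07 and 38.2 ± 7.99 FPKM, a ratio of 2.92. On the log2(FPKM + 0.1) scale the fitted differences were 1.85 (standard error, SE, 0.0897) and 1.58 (SE 0.164), and same-numbered libraries differed by 1.72, 1.74 and 2.11 in 769-P cells and by 1.79, 1.29 and 1.66 in ACHN cells. Without both ACHN libraries numbered 1, the ACHN difference was 1.47. When each of the 12930 genes tested in both lines was given the lower of its log2 differences in the lines, GANAB ranked 1 of all, at 1.58, followed by CHST14, a dermatan sulfotransferase, at 1.37. This rank restates the choice of GANAB and is no test.

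The 4 groups ran in the order 769-P si-NUF2, ACHN si-NUF2, 769-P si-NC and ACHN si-NC. The si-NUF2 groups did not overlap (lowest 769-P library 153, highest ACHN library 116 FPKM), whereas the si-NC groups did (39.7 to 48.2 against 30.8 to 46.6 FPKM). The response of GANAB was 0.28 larger on the log2 scale in 769-P than in ACHN cells, with an SE of 0.194, and is given without a test because these responses chose the gene.

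PRKCSH (ENSG00000130175, chr19:11435288-11450968) encodes the regulatory subunit of glucosidase II, which keeps the catalytic subunit in the ER. Its 769-P levels were 81.2, 84.2 and 86.0 FPKM after si-NUF2 and 59.8, 54.3 and 43.3 FPKM after si-NC. The groups did not overlap, and the log2 difference of 0.70 (SE 0.12) passed limma's test at a Benjamini-Hochberg adjusted p of 0.0189. The ACHN levels were 115, 64.3 and 69.0 FPKM after si-NUF2 and 105, 58.0 and 59.3 FPKM after si-NC. There the groups overlapped, the library numbered 1 being far above the others on both sides, and the log2 difference was 0.18 (SE 0.317, adjusted p = 0.986).

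Each same-numbered ACHN pair had more PRKCSH with si-NUF2, by 0.16, 0.16 and 0.24 on the log2 scale. With the replicate block the SE of that difference fell to 0.0409, and the adjusted p of 0.0503 still missed the threshold. Without both libraries numbered 1 the ACHN difference was 0.20 (adjusted p = 0.904). The PRKCSH response was 0.51 larger in 769-P than in ACHN cells, which did not pass the test of the difference (adjusted p = 1.0, or 0.0799 with the block). In 769-P cells the call for PRKCSH was lost when si-NUF2 replicate 2, si-NUF2 replicate 3 or si-NC replicate 2 was left out (adjusted p 0.0544, 0.0682 and 0.0571).

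The FPKM of the glucosidase II subunits rest on exon lengths of the whole gene, 5027 bases for GANAB and 5166 for PRKCSH, not on mRNA lengths. Their ratio can be compared between groups, but it does not give the proportion of the mRNAs. The ratio of GANAB to PRKCSH FPKM was 1.89, 1.90 and 1.97 in the 769-P si-NUF2 libraries and 0.782, 0.887 and 0.916 in the si-NC libraries. For ACHN it was 0.911, 1.77 and 1.68 with si-NUF2 and 0.294, 0.804 and 0.625 with si-NC. On the FPKM scale GANAB was thus listed below PRKCSH in all 6 si-NC libraries. It was listed above PRKCSH in 5 of the 6 si-NUF2 libraries, the exception being ACHN replicate 1. As GANAB was chosen for its rise, these ratios carry no test.

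MOGS (ENSG00000115275, chr2:74461057-74465410), glucosidase I, takes the outermost glucose off before glucosidase II can act. It stood at 20.7, 17.5 and 19.6 FPKM in 769-P cells after si-NUF2 and at 21.5, 18.5 and 17.1 FPKM after si-NC, and the groups overlapped. The corresponding ACHN levels were 41.3, 37.8 and 34.9 against 47.3, 41.1 and 35.4 FPKM, again with overlap. The log2 differences were 0.03 (SE 0.112, adjusted p = 0.891) and -0.10 (SE 0.135, adjusted p = 0.969), and neither was called with the block. Without both ACHN libraries numbered 1 the second became -0.06.

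UGGT1 (ENSG00000136731, chr2:128091200-128195677), the glucosyltransferase that senses folding, measured 15.4, 14.7 and 16.8 FPKM in 769-P cells after si-NUF2 and 14.5, 14.6 and 14.0 FPKM after si-NC. The 769-P groups met without overlapping. The ACHN levels were 28.6, 18.0 and 21.4 against 26.0, 17.7 and 20.8 FPKM, with the libraries numbered 1 highest on both sides. Neither log2 difference passed the test, at 0.13 (SE 0.0752, adjusted p = 0.319) and 0.08 (SE 0.217, adjusted p = 0.99). Without the ACHN libraries numbered 1 the latter was 0.05 (adjusted p = 1.0).

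Of the lectin chaperones, the membrane-bound calnexin and the soluble calreticulin gave different values. CANX (ENSG00000127022, chr5:179678628-179730925) measured 274, 252 and 267 FPKM in 769-P cells after si-NUF2 and 261, 262 and 270 FPKM after si-NC. Its ACHN levels were 91.5, 88.9 and 91.5 against 100.0, 84.1 and 90.9 FPKM. Its groups overlapped in both lines, and the log2 differences of 0.01 (SE 0.0592) and 0.00 (SE 0.0961) changed sign with the scaling. The ACHN value was 0.06 without the libraries numbered 1.

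CALR (ENSG00000179218, chr19:12938578-12944489) had the highest mean FPKM of the 9 genes in all 4 groups. Its 769-P libraries held 397, 369 and 406 FPKM after si-NUF2 and 325, 282 and 291 FPKM after si-NC, without overlap. Its mean was 30.6% higher with si-NUF2, and the log2 difference of 0.40 (SE 0.0789) passed the test (adjusted p = 0.0274, limma). Leaving out any one of 5 of the 6 libraries, all but si-NC replicate 1, moved the adjusted p past the threshold (0.0506 to 0.0951), and a fit of all 12 libraries together gave 0.47. In ACHN cells, where its libraries numbered 1 stood apart, the log2 difference was 0.22 (SE 0.347, adjusted p = 0.978). Its same-numbered ACHN pairs differed by 0.11, 0.22 and 0.34, and the adjusted p was 0.0608 with the replicate block. Without both libraries numbered 1 the ACHN difference was 0.28.

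PDIA3 (ENSG00000167004, chr15:43746392-43773279), also named ERp57, forms disulfide bonds in proteins held by both lectins. It measured 93.3, 88.3 and 106 FPKM in 769-P cells after si-NUF2 and 74.6, 71.2 and 81.0 FPKM after si-NC, and the groups did not overlap. The log2 difference of 0.35 (SE 0.0894) fell just outside the threshold (adjusted p = 0.0526) and inside it with the replicate block (adjusted p = 0.00748). In the other line it measured 57.2, 50.9 and 49.3 against 51.7, 44.4 and 42.2 FPKM. The ACHN groups overlapped, but each same-numbered pair was higher with si-NUF2, by 0.17, 0.20 and 0.24, and the log2 difference of 0.21 had an adjusted p of 0.768 without the block and 0.0393 with it. It was 0.22 without both libraries numbered 1 (adjusted p = 0.898).

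PDIA3P1, a processed copy of PDIA3, was also higher with si-NUF2 in 769-P cells, at a mean of 12.3 ± 0.779 against 9.33 ± 0.226 FPKM (log2 0.41, adjusted p = 0.0216). In ACHN cells the copy had a mean of 8.95 ± 0.129 against 7.31 ± 0.41 FPKM (log2 0.31, adjusted p = 0.434, or 0.0303 with the block). Since the copy is near-identical to its parent, reads may have been split between them, and both values are uncertain to that extent. The other copy, PDIA3P2, was at a mean of at most 1.11 FPKM and was not called. Of the paralogs, GANC (log2 0.06 in 769-P and -0.08 in ACHN cells), which encodes another glucosidase of the GANAB family, UGGT2 (-0.05 and -0.14) and CLGN (-0.04 in 769-P cells, too low to test in ACHN cells) were not called either, and CALR3 was too low to test in both lines.

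The last pair acts on the mannoses of proteins that fail to fold. MAN1B1 (ENSG00000177239, chr9:137086927-137109187), ER mannosidase I, measured 7.85, 7.91 and 9.72 FPKM in 769-P cells after si-NUF2 and 7.61, 8.16 and 7.88 FPKM after si-NC, with overlap. Its log2 differences were 0.11 (SE 0.0997, adjusted p = 0.524) in 769-P and 0.09 (SE 0.161, adjusted p = 0.988) in ACHN cells, where the levels ran from 8.53 to 11.6 and from 8.40 to 10.5 FPKM. The ACHN difference was 0.05 without the libraries numbered 1 (adjusted p = 0.999).

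EDEM1 (ENSG00000134109, chr3:5187646-5219957), which hands misfolded glycoproteins to ERAD, was the one gene of the 9 to be lower with si-NUF2 in every same-numbered pair of 769-P cells. Their levels were 5.83, 5.43 and 5.94 FPKM after si-NUF2 and 6.62, 6.35 and 7.36 FPKM after si-NC, without overlap. The log2 difference of -0.23 (SE 0.0868) had an adjusted p of 0.15 without the block and 0.0372 with it. The ACHN levels were 18.4, 11.4 and 13.4 against 19.7, 11.5 and 15.4 FPKM, the groups overlapped, and the log2 difference was -0.09 (SE 0.255, adjusted p = 0.991), or -0.10 without the libraries numbered 1 (adjusted p = 1.0).

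**Figure D1:**
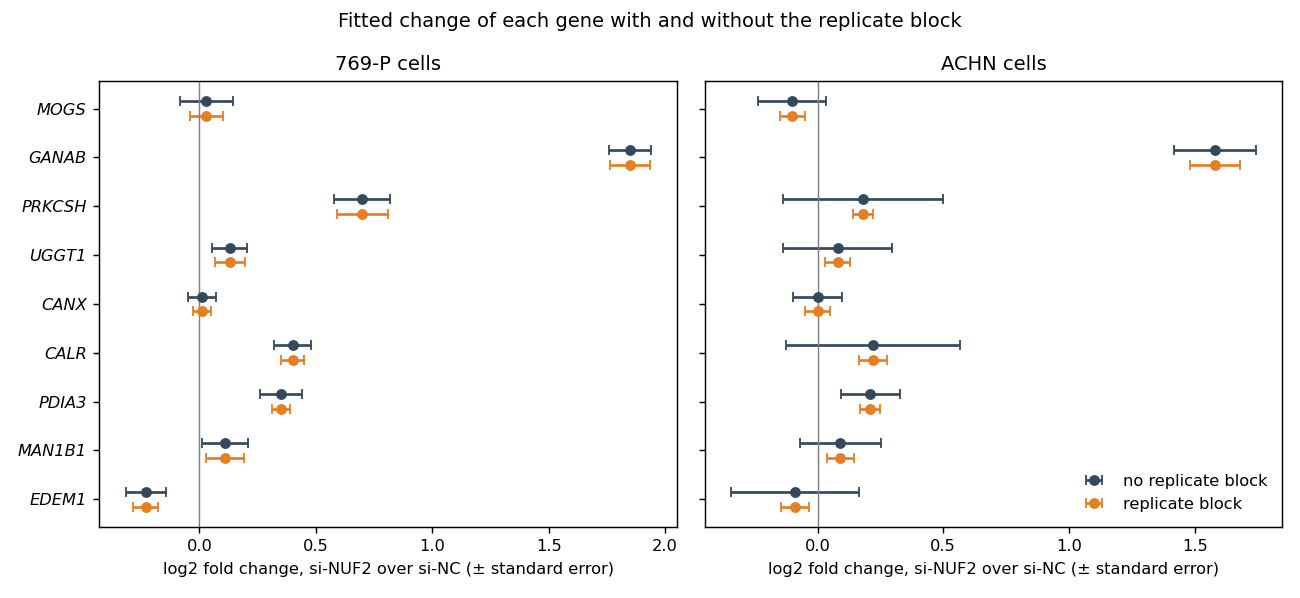
Fitted log2 fold change, si-NUF2 over si-NC (horizontal axis, points with ± 1 standard error), of the 9 genes in 769-P (left) and ACHN cells (right), without and with the replicate block. GANAB stands at 1.85 and 1.58 and PRKCSH follows at 0.70 in 769-P cells, whereas in ACHN cells the block narrows the error of PRKCSH from 0.317 to 0.0409.

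Counted over the 8 genes other than GANAB, 2 were higher and none lower in 769-P cells (PRKCSH and CALR), where 9.98% of all genes tested were called, 5.26% higher and 4.71% lower. With the replicate block, 3 were higher (PDIA3 joining) and 1 lower (EDEM1), where 27.5% of all genes were called, 13.6% higher and 13.9% lower. In ACHN cells none of the 8 was called without the block, and neither was any other gene (0.0%; 1238 of 15116 genes had an unadjusted p under 0.05, and limma-voom on the recovered reads called 0), and 1 was higher with it (PDIA3), where 12.2% of all genes were called, 7.14% higher and 5.05% lower. The study itself, with DESeq2 on counts, did report genes changed in ACHN cells at an adjusted p under 0.05. The median log2 difference of the 8 was 0.12 in 769-P and 0.09 in ACHN cells, beside -0.01 and 0.01 over all genes tested. Groups that did not overlap were seen in 769-P cells for 4 of the 8 in the higher direction (PRKCSH, UGGT1, CALR and PDIA3) and for 1 in the lower (EDEM1), beside 16.6% and 16.4% of all genes, and in ACHN cells for none of the 8, beside 8.86% and 5.74%.

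The difference in response between the lines was called for none of the 8 genes without the block, as for none of the 12930 genes tested (0.0%; 603 had an unadjusted p under 0.05, and limma-voom called 0), nor with the block, where 3.22% of genes were called. The lowest adjusted p among the 8 was that of PRKCSH, 0.0799 with the block. A response in one line and not in the other is therefore not shown for any of them.

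**Figure D2:**
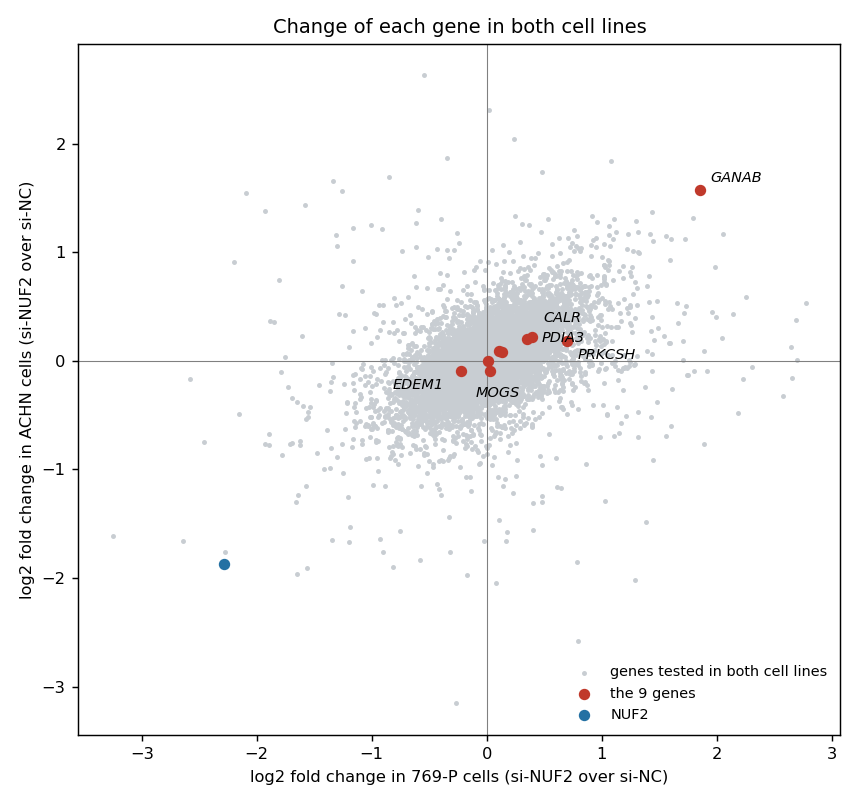
Log2 fold change, si-NUF2 over si-NC, of each gene tested in both cell lines, with 769-P cells on the horizontal and ACHN cells on the vertical axis, with the 9 genes in red and NUF2 in blue. GANAB lies at the upper right at 1.85 and 1.58, NUF2 at the lower left at -2.29 and -1.87, and the other 8 genes between -0.23 and 0.70 in 769-P and between -0.10 and 0.22 in ACHN cells.

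Without the knockdown, the si-NC libraries of both lines showed how the 9 mRNAs differ between the lines, a comparison that the choice of the 8 genes did not use, although it shares the si-NC libraries with those above. CANX was 1.57 higher on the log2 scale in 769-P than in ACHN cells (adjusted p = 2.35e-05), with means of 265 ± 4.76 and 91.8 ± 8.19 FPKM (SD, n = 3). PDIA3 was 0.75 higher (adjusted p = 0.000958), with means of 75.6 ± 4.94 and 46.1 ± 4.99 FPKM. The mRNAs of the membrane chaperone and its isomerase were thus more abundant in 769-P cells, where 32.2% of all genes tested were called higher.

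In the opposite direction, MOGS was lower in 769-P than in ACHN cells (log2 -1.07, adjusted p = 0.000671), at 19.0 ± 2.27 against 41.3 ± 5.95 FPKM, and so was EDEM1 (log2 -1.12, adjusted p = 0.0025), at 6.77 ± 0.522 against 15.5 ± 4.11 FPKM. UGGT1 was lower as well (log2 -0.52, adjusted p = 0.0182), a call that was lost when any one 769-P library was left out (adjusted p up to 0.0599). PRKCSH (-0.41, adjusted p = 0.19), CALR (0.29, adjusted p = 0.384) and MAN1B1 (-0.17, adjusted p = 0.257) did not pass the test, and CALR did when the ACHN library numbered 1 was left out (0.62, adjusted p = 0.00275). The log2 difference of GANAB was 0.29 (SE 0.166). Of the 8 genes, 2 were thus higher and 3 lower in 769-P cells, beside 61.5% of all 15376 genes tested called, 32.2% higher and 29.3% lower.

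Other steps of the pathway were read from 4 lists. Of 34 genes that build the glycan precursor or belong to the oligosaccharyltransferase (OST), which transfers it to proteins, 3 were higher and 1 lower in 769-P cells, and 7 and 1 with the replicate block. In ACHN cells none was called without the block, and 2 were higher and 1 lower with it. Of all genes tested in 769-P cells, 5.26% were called higher and 4.71% lower, or 13.6% and 13.9% with the block. In ACHN cells none was, or 7.14% and 5.05% with the block. The median log2 difference of the list was 0.05 in 769-P and 0.06 in ACHN cells.

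By name, MPDU1, which is needed for the use of dolichol-linked mannose and glucose, was at 21.9 ± 1.34 against 17.4 ± 0.737 FPKM in 769-P cells (log2 0.34, adjusted p = 0.0369) and at 20.4 ± 2.6 against 15.6 ± 1.19 FPKM in ACHN cells (log2 0.40, adjusted p = 0.467, or 0.0206 with the block). RPN1, a subunit of the OST, rose by 0.26 on the log2 scale in 769-P cells (adjusted p = 0.0466) and differed by 0.24 in ACHN cells (adjusted p = 0.728, or 0.0292 with the block). ALG5, which makes dolichol-linked glucose, rose by 0.28 in 769-P cells (adjusted p = 0.0467). DOLK, the kinase that makes dolichol phosphate, was lower there (log2 -0.44, adjusted p = 0.0228), with -0.08 in ACHN cells (adjusted p = 0.971).

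Of 23 ER chaperones and oxidoreductases, 6 were higher and 1 lower in 769-P cells, and 11 and 3 with the block. In ACHN cells 22 were tested, of which none was called without the block and 4 were higher with it. The shares of all genes called higher and lower were 5.26% and 4.71% in 769-P cells, or 13.6% and 13.9% with the block. With the block in ACHN cells they were 7.14% and 5.05%. The list's median was 0.16 in 769-P and 0.06 in ACHN cells. ERO1A, the oxidase that recharges protein disulfide isomerases, was at 6.24 ± 0.526 against 3.38 ± 0.237 FPKM in 769-P cells (log2 0.87, adjusted p = 0.00599). The ACHN means were 13.8 ± 4.48 against 9.12 ± 1.85 FPKM, and the groups met at 10.2 FPKM (log2 0.59, adjusted p = 0.655, or 0.0423 with the block). Without the libraries numbered 1 the ACHN difference of ERO1A was 0.43. CRELD2 (log2 0.60, adjusted p = 0.0416) and SIL1, the nucleotide exchange factor of the chaperone HSPA5 (log2 0.50, adjusted p = 0.0123), were also higher in 769-P cells, with 0.31 and 0.16 in ACHN cells, where neither was called (0.47 and 0.11 without the libraries numbered 1). TXNDC5, a disulfide isomerase, was lower in 769-P cells, at 5.57 ± 0.391 against 8.58 ± 0.316 FPKM (log2 -0.61, adjusted p = 0.0103), with 0.03 in ACHN cells (adjusted p = 0.997), or 0.20 without the libraries numbered 1.

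The major ER chaperones HSPA5 (BiP) and HSP90B1 (GRP94) are the usual readouts of the unfolded protein response, in which the factor ATF6 binds ER stress response elements (ERSE) in promoters. HSPA5 measured 278, 227 and 253 FPKM in 769-P cells after si-NUF2 and 251, 206 and 214 FPKM after si-NC. These groups overlapped, and the log2 difference of 0.18 had an adjusted p of 0.328 without the block and 0.0299 with it. The ACHN levels were 262, 177 and 137 against 421, 176 and 158 FPKM, the library numbered 1 being highest on both sides (log2 -0.28, adjusted p = 0.978). Its same-numbered pairs differed by -0.66, 0.01 and -0.18, and without the libraries numbered 1 the log2 difference was -0.08 (adjusted p = 0.999). HSP90B1 was at 206, 190 and 226 against 165, 150 and 162 FPKM in 769-P cells, without overlap (log2 0.39, adjusted p = 0.0332), and its ACHN difference was 0.17 (adjusted p = 0.754, or 0.0564 with the block).

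Promoter windows of RefSeq on GRCh38.p14, from 250 bases before to 50 after a start site, were given for 7 of the 9 genes. They were read on both strands for the ERSE, spelled CCAAT, 9 bases of any kind and CCACG, and for its first word CCAAT, which lies inside it. The ERSE was in 27 of 35116 windows (0.0769%), while CCAAT was in 34.6%. The stretches below are shown as a description, with capitals for the words CCAAT and CCACG. HSPA5 and HSP90B1 were picked as readouts of the response that acts through this element, so their matches are no independent result.
CANX: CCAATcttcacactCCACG
CALR: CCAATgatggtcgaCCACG
HSPA5: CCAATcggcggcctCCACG
HSP90B1, first: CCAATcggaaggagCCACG
HSP90B1, second: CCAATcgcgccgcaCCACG
GANAB, first CCAAT: CCAATgagacagctgcccg
GANAB, second CCAAT: CCAATcataaggccggaag

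The element of CANX began 151 bases before a start site (chr5:179698778-179698796), that of CALR lay on the opposite strand and began 207 bases before it (chr19:12938384-12938402), and that of HSPA5 began 66 bases before it (chr9:125241391-125241409). Those of HSP90B1 began 194 (chr12:103930216-103930234) and, on the opposite strand, 71 bases before it (chr12:103930321-103930339). The window of GANAB held no ERSE. Its CCAAT words began 119 (chr11:62646714-62646732) and 83 bases (chr11:62646678-62646696) before the RefSeq start site of that window. Neither was followed by CCACG at that spacing. The second word lies inside the gene range printed above for GANAB. The CANX element likewise lies inside the range printed for CANX, which had 4 windows. No ERSE of this exact spelling, the only form searched, was found in the windows of PRKCSH, UGGT1, MAN1B1 and EDEM1. MOGS and PDIA3 had no window and were not searched. Of the genes with an ERSE, CALR and HSP90B1 were called in 769-P cells without the block. HSPA5 was called there with the block only, and CANX in neither fit. Over all genes tested in 769-P cells, the share called was 9.98%, or 27.5% in the blocked fit. In ACHN cells neither fit called any of these ERSE genes. Their ACHN log2 differences were 0.22 (CALR), 0.17 (HSP90B1), -0.28 (HSPA5) and 0.00 (CANX). A part of the element in these changes was not tested. A match is a run of letters and no shown binding site.

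Of the ERAD genes and cargo receptors, 18 of 20 were tested in 769-P cells and 19 in the other line. None was called in either line without the block, and with it 4 were lower and none higher in 769-P cells and none was called in ACHN cells. Of 8 Golgi enzymes that trim or extend the glycan further, 7 were tested in each line. None was called without the block, and with it 4 of the 7 were lower in 769-P cells and none in ACHN cells. Beside both lists, 13.6% of all genes tested in 769-P cells were called higher and 13.9% lower with the block. For ACHN cells these shares were 7.14% and 5.05%. The median log2 difference was 0.02 (769-P) and -0.04 (ACHN) for the ERAD list and -0.28 and 0.00 for the Golgi list. The 4 lists together held 82 tested genes in each line, of which 9 were higher and 2 lower in 769-P cells, or 18 and 12 with the block, and in ACHN cells none, or 6 and 1 with the block. These counts stand beside 9.98% of all genes called in 769-P cells, or 27.5% with the block. For ACHN cells the share was 0.0%, or 12.2% with the block.

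GANAB was also set beside the genes around it on the chromosome. Of 14 annotated genes with a start within 50 kb of that of GANAB, 10 were tested in each line, and none was called without the block. The nearest tested gene, INTS5, whose start lies 6.6 kb away, had log2 differences of 0.04 (SE 0.0821) in 769-P and 0.05 (SE 0.11) in ACHN cells. B3GAT3 (0.08 and 0.02), UBXN1 (0.07 and 0.07), MTA2 (-0.10 and -0.01), EML3 (0.28 and 0.01), CSKMT (0.24 and 0.13), LBHD1 (-0.11 and -0.09) and the antisense gene AP001458.1 (-0.06 and 0.92) were called in neither fit. With the block, ROM1 (log2 0.95, adjusted p = 0.0361) and UQCC3 (log2 0.30, adjusted p = 0.0344) were higher in 769-P cells, with 0.10 and 0.29 in ACHN cells, where they were not called. AP001458.2, C11orf98, SNORA57 and LRRN4CL were too low to test.

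The genes with the pattern most like that of GANAB over the 12 libraries were found by Pearson's r of log2(FPKM + 0.1) after each line was centred on its own mean. They were CHST14 (r = 0.992), the kinetochore gene ZW10 (0.991), the kinesin KIF9 (0.988), POLR2D (0.987), a subunit of RNA polymerase II, ENSA (0.985), a phosphatase inhibitor, and TOMM22 (0.985), a receptor for mitochondrial protein import. Since the si-NUF2 libraries share a treatment, any gene that follows it in both lines scores high, and these r are a description. CHST14 was at a mean of 7.51 against 2.72 FPKM in 769-P cells and 14.5 against 5.62 FPKM in ACHN cells, and ZW10 at 5.85 against 2.13 and 5.79 against 2.56 FPKM. By the same measure the other members reached 0.741 (PDIA3), 0.53 (PRKCSH) and 0.364 (CALR), while MAN1B1 (0.263), UGGT1 (0.187), CANX (-0.0875), MOGS (-0.121) and EDEM1 (-0.461) lay lower.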

How the data were processed

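RNA sequencing was from 769-P and ACHN cells, 3 libraries per group. The values the authors deposited are FPKM per gene and library. Reads were filtered with fastp, and the submitters' processing notes name HISAT2 2.0.5, featureCounts 1.5.0-p3 and hg38, while strand setting and annotation release are not given in the sources used here. The annotated genes that overlap a member had a mean of at most 0.261 FPKM. Exon lengths of GENCODE 29 turned FPKM into whole reads (within 0.02) for 35474 of 36305 genes above 0 (97.7%), which served for depth and for limma-voom. Of the members, GANAB and MOGS needed another length than the annotated one (5027 and 3234 bases in place of 5030 and 3584).

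Within a line, FPKM were divided by scaling factors of 0.9898 to 1.01, taken from trimmed means of log ratios, and log2(FPKM + 0.1) was fitted with limma 3.58.1 in R 4.3.3 (lmFit, eBayes with trend) for genes at 0.5 or more in at least 3 of 6 libraries, which took the place of the authors' DESeq2 test on counts. Genes with a Benjamini-Hochberg adjusted p under 0.05 over all genes tested were called. Differences between lines were tested as an interaction over 12 libraries. Same-numbered libraries deviated together from their group means within each line (correlations 0.19 to 0.359 for 769-P and 0.46 to 0.735 for ACHN), so the numbers pair libraries within a line by the data, but not between lines (-0.054 to 0.044), and the block is given where it changes a call. On simulated data with 200 genes changed by 1 on the log2 scale, 84.0% were called in 769-P (14079 genes) and 51.5% in ACHN cells (15056 genes). The simulated noise was drawn for each library alone, without the shared deviations of same-numbered libraries. The changed genes all had a mean log2(FPKM + 0.1) above 1. These shares may therefore not hold for the real ACHN libraries, where the fit without the block called 0 genes. Named genes were all members, NUF2, HSPA5, HSP90B1, copies and paralogs, genes within 50 kb of GANAB, up to 4 per list with the largest 769-P change among those called in 769-P cells or, with the block, in ACHN cells, and the 6 most like GANAB. The members and lists were chosen with earlier results of these data known. Tables were built in Python 3.11.15, pandas 2.3.3, NumPy 2.4.6 and matplotlib 3.10.9.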

Additional observations from a re-analysis of the deposited data

Results flagged for a closer look

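MAN1A1, a Golgi mannosidase of the lists above, had a response that differed between the lines in the test of the difference itself, with the replicate block. It was picked from the genes of the lists after its values were seen. In the same test with the block, 3.22% of all 12930 genes tested were called, so this call is no result about the lists. The response was lower by 0.69 on the log2 scale in 769-P than in ACHN cells, that is -0.69 (adjusted p = 0.022 with the block, 1.0 without). In 769-P cells the mean was 3.36 ± 0.723 FPKM with si-NUF2 and 5.5 ± 1.41 with si-NC, and in ACHN cells 1.97 ± 1.38 and 2.04 ± 1.56.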

How the results depend on the processing

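Over the alternatives (other scalings, pseudocounts of 1 and 0.01, no filter on low values, the replicate block, limma-voom, all 12 libraries in one fit and each library left out), GANAB stayed between 1.77 and 1.91 in 769-P and between 1.43 and 1.74 in ACHN cells on the log2 scale. The 1412 genes called in 769-P cells became 635 without the filter, 3898 with the replicate block, 768 in one fit of 12 libraries and 357 to 1144 with 1 library left out. The 11 called genes of the pathway lists there became 5, 30, 5 and 3 to 10. In ACHN cells 0 genes became 1843 with the block and 173 in one fit, and 0 with a library left out, and the pathway lists gave 7 with the block. For the difference between lines, 0 became 15 without the filter and 416 with the block, and 0 with a library left out. PRKCSH and CALR in 769-P cells lost their calls without the filter (adjusted p 0.0522 and 0.103) and in one fit (0.152 and 0.47), and PDIA3 gained one under median-ratio scaling (0.0477), limma-voom (0.0298) and the block (0.00748). CANX turned sign with FPKM as deposited (-0.0022 in 769-P, -0.02 in ACHN cells), in ACHN cells with median-ratio scaling and limma-voom (-0.01 each), and for the difference between lines without both ACHN libraries numbered 1 (-0.05), an alternative chosen after seeing the data. With 1 library left out, signs turned in 769-P cells for MOGS (-0.05 to 0.13) and CANX (-0.02 to 0.05). In ACHN cells they turned for MOGS (-0.20 to 0.01), PRKCSH (-0.08 to 0.46), UGGT1 (-0.10 to 0.24), CANX (-0.06 to 0.07), CALR (-0.05 to 0.55), MAN1B1 (-0.06 to 0.19) and EDEM1 (-0.29 to 0.10). For the difference between lines they turned for UGGT1 (-0.11 to 0.23), CANX (-0.06 to 0.06), CALR (-0.15 to 0.44), MAN1B1 (-0.08 to 0.17) and EDEM1 (-0.32 to 0.06). None of these reversed values was called, and the cause was not tested. PDIA3 kept its sign in both lines throughout. Among the 8 genes tested, the replicate block changed the calls of PDIA3 in both lines and of EDEM1 in 769-P cells, and no other. With 3 libraries a group, the spread between libraries limits which small changes can be called.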
